A study of Rattus norvegicus with 44 samples.

Results

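Translation initiation factor genes encode the proteins that bring an mRNA and its initiator tRNA to the small ribosomal subunit, find the start codon and let the large subunit join. Genes were taken by name, as every gene whose symbol starts with Eif followed by a digit from 1 to 6, without the Y-linked Eif2s3y, whose mean over all rats was no less than 5 in normalized value. This gave 51 genes of 18347 in the table, and all 51 lay among the 15598 genes with that mean that were tested. The lowest of their means was 88.3 and the highest 5358, so none was near the minimum. Eif3e and Eif3h are not analysed here.

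The tissue was the dentate gyrus of the hippocampus of male rats (F344, an inbred strain), read by bulk RNA sequencing in 44 animals. The young rats (YNG, n = 10) were 6 months old. The other 34 were 12 months old when treatment began and about 18 months old when the tissue was taken. They received vehicle (AV, n = 12), the BCL-2 family inhibitor ABT-263 at 12 mg/kg (AA, n = 11), or dasatinib at 1.2 mg/kg with quercetin at 12 mg/kg (ADQ, n = 11), all by oral gavage on 5 days of each cycle for 8 cycles, with a last round 2 weeks before collection. Both drug treatments are senolytic, that is, meant to remove senescent cells. The group label of the young rats reads Young - Vehicle, while the methods name a vehicle group among the older rats only. Whether and how the young rats were given vehicle by gavage is not stated. Age and gavage may therefore not be separable in comparisons with them. The arm of each older rat came from the deposited attribute table, since the sample labels give only the age. No source says that rats shared a litter or a batch, and the p-values measure the spread between these rats.

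Initiation starts when eIF2, carrying GTP and the initiator tRNA, joins the small subunit together with eIF1, eIF1A, eIF5 and the large scaffold eIF3. The eIF4F complex (cap-binding eIF4E, scaffold eIF4G and helicase eIF4A) brings in the capped mRNA. Cells throttle initiation in a pair of ways. The 4E-BP proteins sequester eIF4E unless mTORC1 phosphorylates them, and stress kinases phosphorylate the alpha subunit of eIF2, which blocks its exchange factor eIF2B in the integrated stress response. In neurons the same steps set how much protein is made at synapses, and they are needed for lasting memory.

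Dentate granule cell markers were present in every rat (5 of 6 listed genes tested, none at 0), with 1 AA rat low at a summed value of 2903 against 9455 to 14590 in YNG, and CA1 markers reached 42260 in AA against at most 17060 in YNG. Choroid plexus markers reached a summed 1440 in AV and 1002 in AA, against at most 177.2 in YNG. Kl and Clic6 were each at 0 in at least 1 rat. In AV against YNG 6 of 7 oligodendrocyte and 4 of 4 endothelial markers were higher (limma, unadjusted p under 0.05). In ADQ against AV 5 of 7 oligodendrocyte, 4 of 4 endothelial, 4 of 6 microglia and 5 of 5 red blood cell markers were lower. In AA against ADQ 5 of 7 immediate early genes were higher. The part of these cells in the results below was not tested. Rat numbers fell into 2 series of 22 rats, series a (V1 to V6 and 3890 to 4011) and series b (V9 to V12 and 4031 to 4572). No source names them as batches, and each held all 4 groups.

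The libraries also stood apart on 1 axis that bears on most results below, the level of the 76 cytosolic ribosomal protein genes. Their summed normalized value was 99170 at the lowest, 278300 at the median and 351600 at the highest in YNG. It was 117100, 147800 and 346800 in AV, 121000, 142300 and 256500 in AA, and 116300, 146900 and 182800 in ADQ. Sorted over all rats it left a gap between 192088 and 230262, with 10 rats above it: 6 of 10 YNG (V1, V2, V3, V4, V9 and V12), 3 of 12 AV (3989, 4567 and 4572), 1 of 11 AA (3985) and 0 of 11 ADQ. Counts of members called, and some single members, are given below with and without these rats. The gene lists outside the members are given over all 44 rats only. Of the 76 genes, 33, 60 and 63 were lower in AV, AA and ADQ than in YNG, and 0 were higher in any of them. Among all genes tested 10.7%, 14.1% and 14.6% were lower and 10.6%, 12.6% and 13.5% higher.

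The promoters of 5 eIF3 genes hold the same 7 letters. The windows below show them in Eif3i and Eif3k, the eIF3 genes with the largest age differences, and in Eif3m. The windows of Eif3f, of the eIF2B gene Eif2b5 and of the kinase gene Eif2ak4, which are also described below, hold no copy and stand beside them for comparison. Each runs from 45 bases before the annotated start to 15 bases from it on, in RefSeq's GRCr8 assembly and read 5′ to 3′ on the gene's strand. Capitals mark CTTCCGG or its reverse complement CCGGAAG, the core bound by ETS transcription factors.
Eif3i, chr5:147226896-147226955, minus strand: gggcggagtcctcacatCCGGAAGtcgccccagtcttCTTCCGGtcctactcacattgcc
Eif3k, chr1:93397473-93397532, minus strand: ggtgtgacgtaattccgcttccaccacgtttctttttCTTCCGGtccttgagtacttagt
Eif3f, chr1:172369017-172369076, plus strand: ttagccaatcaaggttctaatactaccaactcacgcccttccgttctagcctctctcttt
Eif3m, chr3:111897179-111897238, minus strand: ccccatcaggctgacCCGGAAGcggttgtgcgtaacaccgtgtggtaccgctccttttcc
Eif2b5, chr11:93908786-93908845, minus strand: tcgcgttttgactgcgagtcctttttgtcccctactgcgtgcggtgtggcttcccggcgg
Eif2ak4, chr3:125810162-125810221, plus strand: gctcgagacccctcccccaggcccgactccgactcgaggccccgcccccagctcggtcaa

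In Eif3i and Eif3k the copy nearest the start ended 2 bases before it. Over the whole 300-base windows (250 bases before the start and 50 after), 19 of the 47 matched members held CCGGAAG on either strand, or 40.4%, against 8.75% of all 33469 promoters in the table. The 11 eIF3 genes accounted for 5 of these (Eif3d, Eif3g, Eif3i, Eif3k and Eif3m), or 45.5% of the 11, near the share of all members. The 8-letter form CCGGAAGT, which contains those 7, was in 11 members (23.4%, against 3.81%). The E-box CACGTG was in 9 members (19.1%, against 6.42%), the NRF1 motif GCATGCGC in 4 (8.51%, against 2.47%) and the C/EBP-ATF motif TGATGNAA in 2 (4.26%, against 3.98%). A C followed by 4 pyrimidines at the annotated start, as in mRNAs with a terminal pyrimidine tract, was found in 1 member, Eif2a (2.13%, against 2.63%). Only the annotated start base was tried, so a tract that begins a few bases from it was not counted. These matches describe letters in a window, and the 7-letter form was chosen after the sequences had been seen. The shares they stand against cover all promoters in the table, whether or not the gene was among those tested.

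In the older vehicle rats 14 of the 51 genes passed an unadjusted p under 0.05 against YNG (limma over all 15598 genes, on log2 of the normalized value plus 1). Of these, 1 (Eif2ak4) was higher, where 10.6% of all genes were, and 13 were lower, where 10.7% of all genes were. Only Eif2b5 passed a Benjamini-Hochberg adjusted p under 0.05, as 2.35% of all genes did. The 13 lower genes make up 25.5% of the members. Their 51 log2 differences had a median of -0.14, against -0.00172 over all genes. In bulk tissue fewer cells of a type and less RNA per cell cannot be told apart.

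With ABT-263, 22 members passed against YNG, 2 higher (Eif2ak3 and Eif2ak4, 12.6% of all genes) and 20 lower (14.1% of all genes), and 5 passed after adjustment (3.85% of all genes). With dasatinib and quercetin, 22 members passed, 4 higher (those 2, Eif4ebp3 and Eif5a2, 13.5% of all genes) and 18 lower (14.6% of all genes), and 9 passed after adjustment (7.08% of all genes). The median log2 differences of the members were -0.17 and -0.15. These comparisons share the 10 YNG rats and are given side by side only. In no comparison did the values of a member separate the groups without overlap, and over all genes 0.0385%, 0.0321% and 0.0641% did so for AV, AA and ADQ against YNG.

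**Figure D1:**
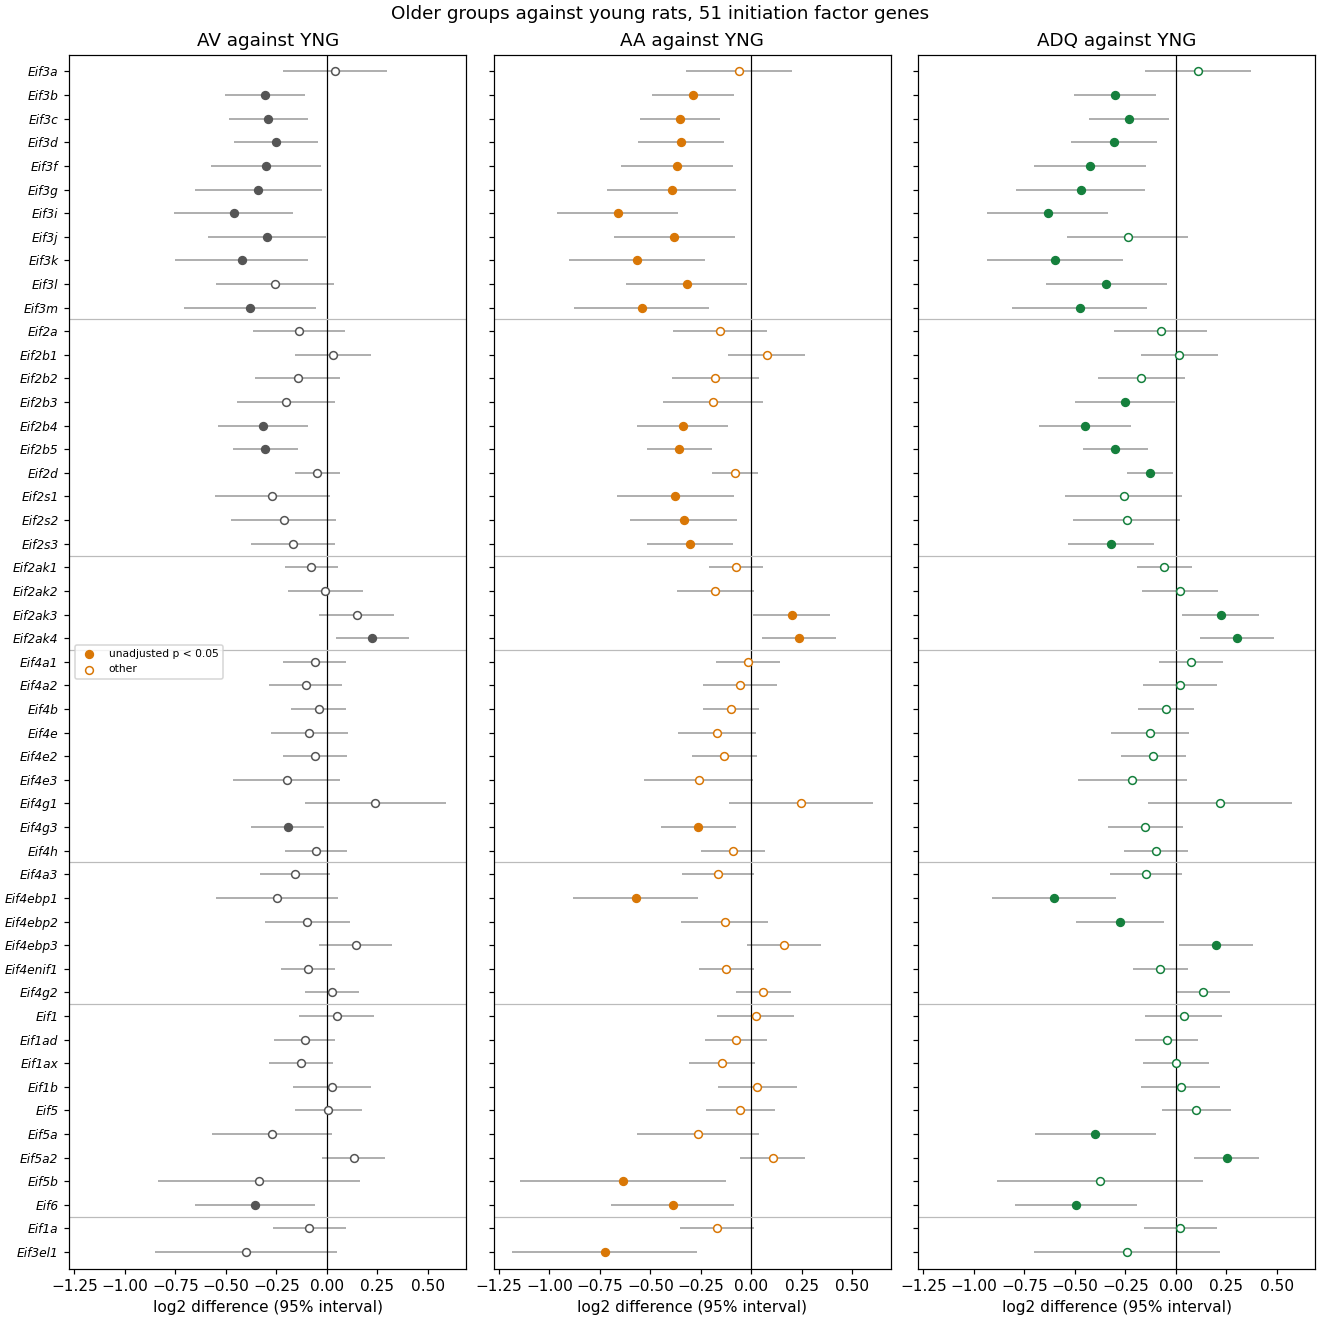
Log2 difference of each of the 51 members (rows, grouped by role) from the young rats, with its 95% interval from limma, in AV, AA and ADQ against YNG. Filled points passed an unadjusted p under 0.05, and the eIF3 subunits at the top, except Eif3a, lie to the left of 0 in all 3 panels.

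The eIF3 subunits made up 9 of the 13 lower calls in AV, 10 of 20 in AA and 9 of 18 in ADQ. eIF3 is the largest initiation factor, and it holds the small subunit open for the mRNA. It had 11 measured genes, and 0 were higher in any of these groups. The median log2 differences were -0.30, -0.37 and -0.34. For comparison, 10.7%, 14.1% and 14.6% of all genes were lower in AV, AA and ADQ, and 10.6%, 12.6% and 13.5% higher.

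Eif3i encodes a WD-repeat subunit of the outer part of eIF3. Its normalized value in YNG ran from 533.5 to 1283 with a median of 1041. The AV rats ran from 480.2 to 1252 (median 659.4), the AA rats from 395.7 to 773.6 (647.6) and the ADQ rats from 530.8 to 743.3 (587.2). All 11 AA and all 11 ADQ rats, and 10 of 12 AV rats, lay below the YNG median, but the ranges overlapped, and 3 AV, 3 AA and 1 ADQ rats lay below the lowest YNG rat. The log2 differences for AV, AA and ADQ were -0.46, -0.66 and -0.63, each ± 0.15 (SE), with limma adjusted p of 0.0761, 0.0217 and 0.017. On the linear scale the AA level fell by 36.9%.

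Eif3k encodes a small subunit of eIF3. It ran from 680.7 to 2193 in YNG with a median of 1721, and from 815.1 to 2072 in AV with a median of 938.1. The AA rats lay between 782 and 1217, and the ADQ rats between 742.1 and 1200. No AA or ADQ rat reached the YNG median, and 2 AV rats did. For AV, AA and ADQ the log2 differences were -0.42 ± 0.16, -0.57 ± 0.17 and -0.60 ± 0.17 (limma adjusted p 0.136, 0.0471 and 0.0276).

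Eif3f and Eif3m encode subunits of the octamer core. Eif3f had medians of 3112, 2005, 2078 and 2043 for YNG, AV, AA and ADQ, and differed by -0.30, -0.37 and -0.43 on the log2 scale (adjusted p 0.186, 0.0879 and 0.0488). Eif3m had medians of 988.5, 635.3, 627.4 and 629, and differed by -0.38, -0.54 and -0.48 (adjusted p 0.168, 0.0502 and 0.0634). In both genes the 3 older groups had nearly the same median while the YNG rats spread widely, from 1715 to 3824 for Eif3f and from 566.1 to 1288 for Eif3m.

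Eif3c, another core subunit, was at 3331 ± 570 (SD, n = 10) in YNG, and at 2732 ± 552, 2596 ± 364 and 2815 ± 358 in AV, AA and ADQ. Its log2 differences were -0.29, -0.35 and -0.23, and the AA value passed adjustment (adjusted p 0.0406). Eif3b, the scaffold that carries the outer WD-repeat module, differed by -0.31, -0.29 and -0.30, each at an unadjusted p under 0.05. Eif3d, which can itself bind the cap of some mRNAs, differed by -0.25, -0.35 and -0.31, and Eif3g, a small RNA-binding subunit, by -0.34, -0.39 and -0.47, all passing unadjusted.

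The remaining subunits were less even. Eif3j, a loosely bound subunit at the mRNA channel, passed in AV (-0.30) and AA (-0.38) and had a difference of -0.24 in ADQ (p = 0.116). Eif3l passed in AA (-0.32) and ADQ (-0.34) and had -0.26 in AV (p = 0.0834). Eif3a, the largest subunit and the backbone of the complex, did not pass in any group. Its differences were 0.04, -0.06 and 0.11, and its 95% interval in AA ran from -0.33 to 0.20.

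eIF2 delivers the initiator tRNA, and eIF2B reloads it with GTP. Of these 10 genes 2, 5 and 5 were lower in AV, AA and ADQ, and 0 were higher. Among all genes 10.7%, 14.1% and 14.6% were lower and 10.6%, 12.6% and 13.5% higher. Eif2b5 encodes the catalytic subunit of eIF2B, the gene most often mutated in vanishing white matter disease. It ran from 640.7 to 986.8 in YNG with a median of 835.1. The AV rats ran from 572.6 to 952.6 (median 634.4), the AA rats from 586.1 to 769.5 (612.3) and the ADQ rats from 621.9 to 789.4 (660). Every AA and ADQ rat lay below the YNG median, and 6 AV, 6 AA and 2 ADQ rats lay below the lowest YNG rat. The log2 differences were -0.31 ± 0.079, -0.36 ± 0.081 and -0.30 ± 0.081, with adjusted p of 0.0275, 0.0225 and 0.025.

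Eif2b4, a regulatory subunit of the same factor, was at 398.3 ± 78.9 (SD) in YNG, and at 322.9 ± 91.8, 310 ± 34.4 and 287.2 ± 31.9 in AV, AA and ADQ. It differed by -0.32, -0.34 and -0.45 on the log2 scale (adjusted p 0.101, 0.0615 and 0.0197). The other regulatory subunits, Eif2b1 and Eif2b2, did not pass, with differences of 0.03, 0.08 and 0.02 for Eif2b1 and of -0.15, -0.18 and -0.17 for Eif2b2. Eif2b3, which forms the catalytic part with Eif2b5, passed in ADQ only (-0.25, against -0.20 in AV and -0.19 in AA), and AA differed from ADQ by 0.06 (p = 0.602).

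The eIF2 subunits passed in AA, and 1 of them also in ADQ. Eif2s1, the alpha subunit that the kinases modify, differed by -0.27, -0.38 and -0.26 and passed in AA (p = 0.0119). Eif2s2, the beta subunit, differed by -0.21, -0.34 and -0.24 and passed in AA (p = 0.0139). Eif2s3, the gamma subunit that binds GTP and tRNA, differed by -0.17, -0.30 and -0.32 and passed in AA (p = 0.00596) and ADQ (p = 0.0038). Of the alternative initiator tRNA carriers, Eif2d passed in ADQ (-0.13, p = 0.0276), and Eif2a, which is not the alpha subunit, did not (-0.14, -0.16 and -0.08).

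The eIF2alpha kinases moved the other way or did not pass. Eif2ak4 (GCN2), the sensor of amino acid shortage, ran from 306.6 to 484.4 in YNG with a median of 388.4. The AV, AA and ADQ medians were 465.5, 486.6 and 478.8, and 10 of 12, 9 of 11 and 10 of 11 rats lay above the YNG median. The log2 differences were 0.23 ± 0.089, 0.23 ± 0.091 and 0.30 ± 0.091, and the ADQ value passed adjustment (adjusted p 0.144, 0.0987 and 0.0363). With the ribosomal protein level as a covariate the ADQ difference of Eif2ak4 was 0.09 (limma p = 0.234). Without the 10 rats of high level it was 0.09 (limma p = 0.309). In AV and AA Eif2ak4 did not pass in either setting. Eif2ak3 (PERK), the sensor of misfolded protein in the endoplasmic reticulum, was at 377.4 ± 75 (SD) in YNG, and at 415.4 ± 60.7, 430.4 ± 59.9 and 434.4 ± 36 in AV, AA and ADQ. It passed unadjusted in AA (0.20, p = 0.0403) and ADQ (0.22, p = 0.0234). Eif2ak1 (HRI), the heme sensor, had -0.08, -0.08 and -0.06, and Eif2ak2 (PKR), the sensor of double-stranded RNA, had -0.01, -0.18 and 0.02. Neither passed.

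Calls among genes listed for the response downstream of these kinases went in both directions in AA and ADQ. Of 16 measured targets and regulators of the integrated stress response, 2 were higher and 0 lower in AV. In AA 3 were higher and 4 lower, and in ADQ 2 were higher and 3 lower. The shares of all genes were 10.6% and 10.7% in AV, 12.6% and 14.1% in AA, and 13.5% and 14.6% in ADQ. Atf3, a stress-induced transcription factor, averaged 4.77 in YNG, 15.8 in AV and 11.6 in AA, and was higher by 1.41 ± 0.32 (limma adjusted p 0.00906) and 1.03 ± 0.32 (adjusted p 0.0547) on the log2 scale. Its YNG mean lay below 5, the minimum set for the mean over all rats, so these differences start from low values. Atf3 averaged 7.33 in ADQ, where it did not pass against YNG (0.32, p = 0.319) and was lower than in AV (-1.09, unadjusted p = 0.000936, adjusted p 0.197). Ppp1r15b, which directs the phosphatase back to eIF2, was higher in all 3 groups (0.35, 0.40 and 0.41, unadjusted). In ADQ, Phgdh of serine synthesis (-0.46, adjusted p 0.0186) and the transcription factor Atf5 (-0.48, adjusted p 0.0388) were lower.

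**Figure D2:**
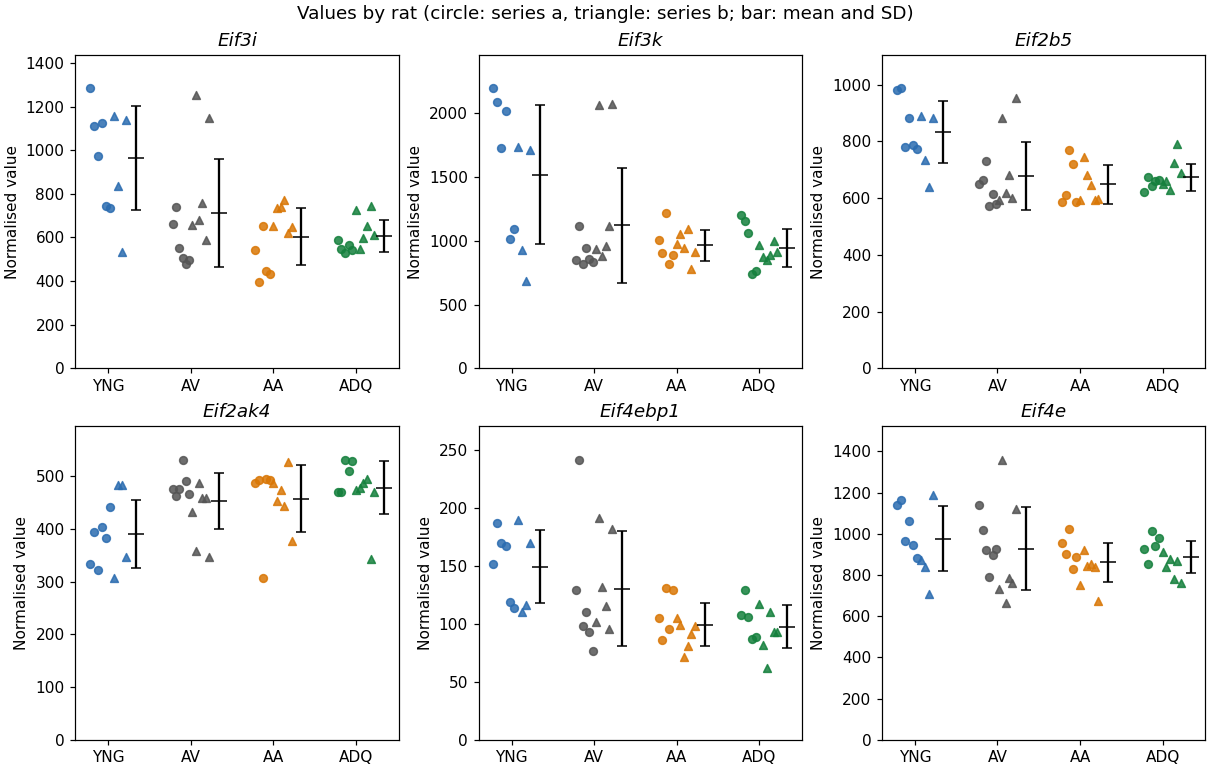
Normalized value of 6 members in each rat by group, with circles for series a, triangles for series b and bars for the mean and SD. Eif3i, Eif3k and Eif2b5 are high in most young rats and in 2 AV rats of series b, Eif2ak4 shows the reverse, Eif4ebp1 is lowest in AA and ADQ, and the ranges of Eif4e overlap throughout.

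The cap-binding complex gave few calls. Eif4e, the cap-binding protein itself, ran from 709.2 to 1186 in YNG, and the AV, AA and ADQ rats lay at 665.9 to 1358, 672.9 to 1024 and 758.7 to 1015. Its log2 differences were -0.09, -0.17 and -0.13, with a 95% interval from -0.37 to 0.02 in AA. The helicase genes Eif4a1 (-0.06, -0.02 and 0.07) and Eif4a2 (-0.11, -0.06 and 0.02) did not pass either.

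Among the scaffold genes, Eif4g3 was lower in AV (-0.19, p = 0.0364) and AA (-0.26, p = 0.00645) and had -0.15 in ADQ (p = 0.108). Eif4g1 varied from 170.7 to 594.5 in AV alone and had 0.24, 0.25 and 0.22, none passing over all 44 rats. The helicase helpers Eif4b (-0.04, -0.10 and -0.05) and Eif4h (-0.05, -0.09 and -0.10) and the cap-binding relatives Eif4e2 (-0.06, -0.13 and -0.11) and Eif4e3 (-0.20, -0.26 and -0.22) did not pass. Of the 9 genes of this group, 1, 1 and 0 were lower in AV, AA and ADQ. The shares of all genes that were lower were 10.7%, 14.1% and 14.6%.

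The inhibitors of eIF4E held the member that also differed between drug and vehicle rats. Eif4ebp1, which encodes 4E-BP1, ran from 109.8 to 189.9 in YNG (median 159.4) and from 76.6 to 241.5 in AV (112.6). The AA rats ran from 71.6 to 130.6 (98.5) and the ADQ rats from 62.2 to 129.2 (92.9). Of the 11 rats in each drug group, 9 in AA and 8 in ADQ lay below the lowest YNG rat. Against YNG the log2 differences were -0.25, -0.57 and -0.60, each ± 0.15 (limma adjusted p 0.335, 0.037 and 0.021).

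Eif4ebp1 was the 1 member that passed against the vehicle rats. In AA against AV 0 members were higher (1.4% of all genes) and 1 lower (3.1% of all genes), at -0.33 ± 0.15 with an unadjusted p of 0.0303 and a limma adjusted p of 0.999. In ADQ against AV 0 were higher (3.42% of all genes) and 1 lower (5.9% of all genes), at -0.36 ± 0.15 with an unadjusted p of 0.0185 and an adjusted p of 0.439. In each drug group 9 of 11 rats lay below the AV median. Without AV rat 3989, whose 241.5 was the highest value, the unadjusted p were 0.0859 and 0.0541. For AA, dropping any of 5 rats in turn ended the call. Within series a the differences were -0.10 and -0.17 and within series b -0.53 and -0.53, and the latter passed unadjusted (limma p of 0.0105 and 0.0115). With 1 of 51 members called, the share was no larger than the share of all genes. Without the 10 rats of high ribosomal protein level, 0 members passed in AA against AV (3.96% of all genes). In ADQ against AV 9 then passed, all higher (9.22% of all genes, in either direction). They were Eif1ax, Eif2s2, Eif3c, Eif3j, Eif3el1, Eif4a2, Eif4g3, Eif5 and Eif5b, between 0.15 (Eif4g3) and 0.48 (Eif3el1) on the log2 scale, and none passed adjustment.

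The other proteins of this group changed less. Eif4ebp2, the main 4E-BP of the brain, was lower in ADQ (-0.28, p = 0.0135) and had -0.10 in AV and -0.13 in AA. Eif4ebp3 was higher in ADQ (0.20, p = 0.0346) and had 0.14 and 0.16. Eif4enif1, which carries eIF4E into the nucleus, had -0.09, -0.12 and -0.08. Eif4g2, a scaffold without the eIF4E site, had 0.03, 0.06 and 0.13, and Eif4a3, the helicase of the exon junction complex, had -0.16, -0.17 and -0.15, none passing.

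Calls in the kinase pathway that releases eIF4E were few, and went both ways in AA only. Of 14 measured genes of mTORC1 and its effectors, 0 were higher and 2 lower in AV, 3 higher and 2 lower in AA, and 0 higher and 1 lower in ADQ, beside the same shares of all genes. Larp1, which binds mRNAs with a terminal pyrimidine tract, was lower by -0.30, -0.36 and -0.34 on the log2 scale, each unadjusted. Mknk2, a kinase of eIF4E, was higher in AA (0.34, p = 0.00372).

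The factors of scanning, joining and elongation were mixed. Eif6, which keeps the large subunit apart until it is needed, ran from 733.2 to 1824 in YNG (median 1643). The AV rats ran from 770.6 to 2023 (958.1), the AA rats from 815.1 to 1437 (1028) and the ADQ rats from 821.2 to 1211 (936). It was lower by -0.35, -0.39 and -0.49 on the log2 scale (adjusted p 0.159, 0.0966 and 0.0384). No AA or ADQ rat reached the YNG median.

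The paralogs of eIF5A, the hypusine-bearing factor that helps the ribosome through stalled stretches, went apart in ADQ. Eif5a was lower (-0.40, p = 0.0108) and Eif5a2 higher, from 514.7 to 948 in ADQ against 565.9 to 770.1 in YNG (0.25, adjusted p 0.0466). In AV and AA Eif5a had -0.27 and -0.27 and Eif5a2 had 0.13 and 0.11. Eif5b, the GTPase of subunit joining, was lower in AA (-0.64, p = 0.0156) and had -0.34 and -0.38 in AV and ADQ, with values from 140.7 to 926.2 in AV.

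In the fit over all 44 rats without a covariate, the start codon factors did not pass in any comparison with YNG. Eif1 had 0.05, 0.02 and 0.04, Eif1b 0.03, 0.03 and 0.02, Eif1ax -0.13, -0.15 and 0.00089, Eif1ad -0.11, -0.08 and -0.05, and Eif5 0.01, -0.05 and 0.10. A pair of genes stood in no role group. Eif1a had -0.09, -0.17 and 0.02, and Eif3el1, which is named as a copy of Eif3e, had -0.40, -0.73 and -0.24 and passed in AA (p = 0.00262).

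Between the drug groups 3 members were lower in AA than in ADQ, where 2.4% of all genes were, and 0 were higher, where 2.13% were. They were Eif3el1 (-0.49, p = 0.0346), Eif1a (-0.19, p = 0.0351) and Eif2ak2 (-0.20, p = 0.0362), and none passed adjustment (adjusted p 0.981). All 3 were also lower with the ribosomal protein level as a covariate (-0.50, -0.19 and -0.20) and without the 10 rats of high level (-0.51, -0.20 and -0.22), each at an unadjusted p under 0.05, when 4 and 6 members passed (6.56% and 7.55% of all genes). For the eIF3 genes the drug and vehicle groups were not separated: Eif3i had -0.20 in AA against AV with a 95% interval from -0.49 to 0.09, and -0.17 in ADQ against AV with an interval from -0.46 to 0.11. For Eif2b5 these intervals ran from -0.21 to 0.10 and from -0.15 to 0.16, and for Eif2ak4 from -0.17 to 0.18 and from -0.10 to 0.25.

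Genes of later steps of translation were also lower. Of 12 measured elongation and termination genes, 8, 9 and 6 were lower in AV, AA and ADQ and 0 were higher. The shares of all genes were 10.7%, 14.1% and 14.6% lower and 10.6%, 12.6% and 13.5% higher. Eef1g, a subunit of the eEF1 exchange factor, had -0.48, -0.65 and -0.61, and Eef2, the translocase, had -0.33, -0.39 and -0.44. Of 15 measured poly(A)-binding and helper genes (14 symbols), beside the same shares of all genes, 1 was higher and 4 lower in AV. In AA 3 were higher and 4 lower, and in ADQ 5 were higher and 5 lower. Pabpc1, the poly(A)-binding protein that joins eIF4G, was lower in AA (-0.62) and ADQ (-0.56), and Ddx3x, an RNA helicase, was higher in ADQ (0.44, adjusted p 0.0295).

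**Figure D3:**
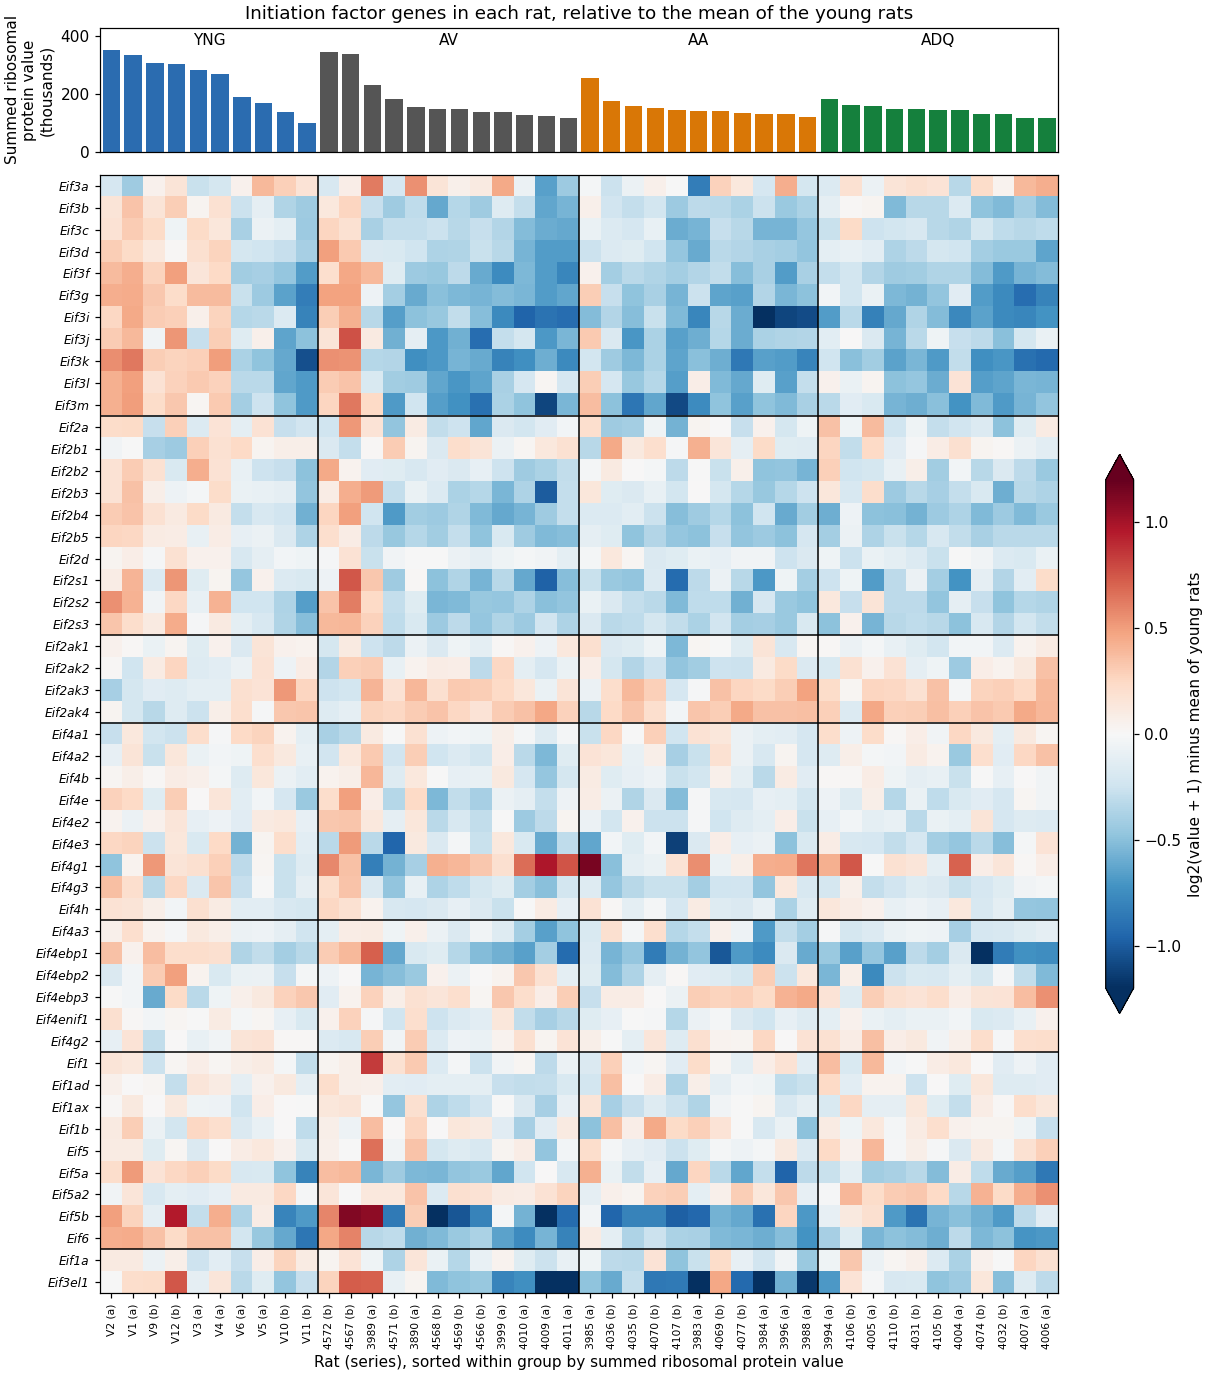
Each of the 51 members (rows, grouped by role) in each of the 44 rats (columns, series in parentheses), as log2 of the value plus 1 minus the mean of the young rats, with colors ending at 1.2 in each direction. The bars above give each rat's summed ribosomal protein value, by which rats are sorted within each group. Red cells of eIF3 and eIF2 genes gather in the rats with the tallest bars.

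Within groups, most members followed the ribosomal protein level from rat to rat. After the mean of each group and series was removed, 35 of 51 members correlated positively and 4 negatively with the mean log2 ribosomal protein value over the 44 rats (adjusted p under 0.05, permutation test within group and series, 100000 permutations, 51 relations). Over the 15522 other genes tested, 17.4% had an r above 0.5 and 14.7% an r below -0.5, and of the members 56.9% and 3.92% did. For 10 of the 11 eIF3 genes the relation was positive, with a median r of 0.87.

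Eif3f was the member closest to it (r = 0.93, rho = 0.91, adjusted permutation p of 3.19e-05 for rho). Without the 2 rats farthest from the median its r was 0.91, and it was 0.91 in series a and 0.95 in series b. Eif3g, Eif3k and Eif6 each had an r of 0.90, and Eif4ebp1 had 0.75. Eif3a, which was not called in any group, had an r of 0.01. Eif2ak4 ran against the ribosomal protein level (r = -0.67, rho = -0.62, adjusted permutation p of 0.000647 for rho), and so did Eif2ak3 (r = -0.53), Eif4ebp3 (r = -0.47) and Eif2b1 (r = -0.46).

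Part of these relations rested on the 10 rats of high ribosomal protein level. Among the other 34 rats the median r of the eIF3 genes was 0.52, and Eif3f had 0.67. Eif2ak4 had -0.09, Eif2ak3 had 0.25 and Eif2b4 had 0.07 there, so for these genes the relation did not hold without those rats.

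**Figure D4:**
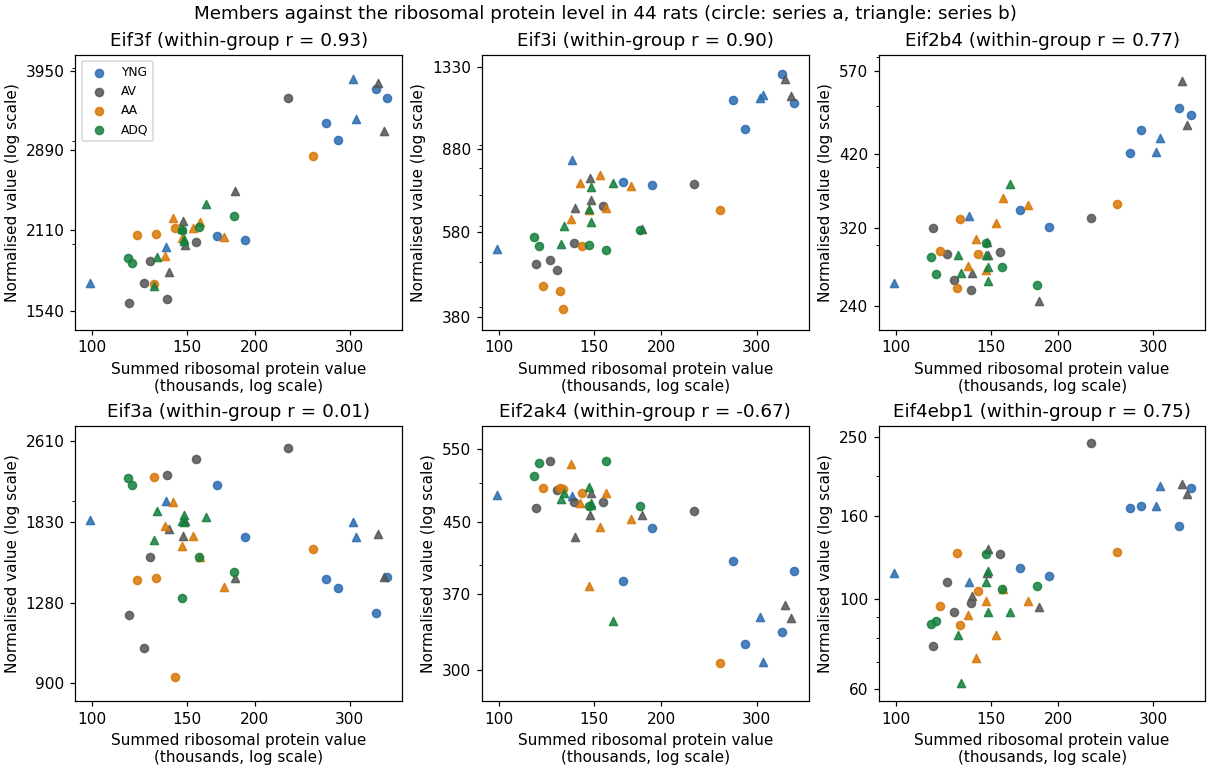
Normalized value of 6 members against the summed ribosomal protein value (both axes logarithmic) in 44 rats, colored by group, with circles for series a and triangles for series b; r was computed after the mean of each group and series was removed. Eif3f, Eif3i and Eif2b4 are high and Eif2ak4 low in the rats at the right, which are mostly YNG, and Eif3a shows no trend (r = 0.01).

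Most differences called against YNG were smaller in the fits that used this level. With it as a covariate, members called against YNG went from 14 to 1 in AV, from 22 to 2 in AA and from 22 to 4 in ADQ, and 0 passed adjustment. Without the 10 rats, which leaves 4 YNG, 9 AV, 10 AA and 11 ADQ rats, they were 2, 1 and 0. Over all genes 11.25%, 6.28% and 6.75% passed with the covariate, and 7.59%, 6.33% and 3.635% without the 10 rats. Not all of these were calls kept: Eif4g1 in AV without the 10 rats (0.49, limma p = 0.0276) was new and higher. So was Eif5 in ADQ with the covariate (0.19, limma p = 0.0465). Both settings were chosen after seeing the data, and the covariate itself differs between the groups. Most members followed this level within groups, and the fit without the 10 rats leaves out 6 of 10 YNG rats. Smaller differences and fewer calls could therefore be foreseen in both settings, and the fit on fewer rats also has less power. Why the calls fell was not tested.

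Eif2b5 kept its call in 4 of these fits, and no other member kept one in more than 2. With the covariate Eif2b5 was lower in AV (-0.15, limma p = 0.00842) and AA (-0.15, p = 0.0151), and without the 10 rats it was too (-0.23, p = 0.00715, and -0.21, p = 0.0128). In ADQ it had -0.09 and -0.12 and did not pass. Eif3i kept its call with the covariate in AA (-0.23, p = 0.016) and ADQ (-0.19, p = 0.0478), and Eif5a2 (0.18, p = 0.0395) and Eif4ebp2 (-0.31, p = 0.0129) kept theirs in ADQ. With the covariate Eif4ebp1 remained lower than in AV, at -0.23 in AA (p = 0.0415) and -0.25 in ADQ (p = 0.0282), but it did not pass against AV without the 10 rats (-0.13 and -0.12). Its differences from YNG did not pass with the covariate (-0.22 in AA and -0.24 in ADQ) or without those rats (-0.27 and -0.26).

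The calls in AV were mostly made in series a. In that series 25 members passed in AV against YNG, 3 higher and 22 lower, and in series b 1 passed. Over all genes 33.4% passed in series a and 6.31% in series b. In AA 21 members passed in series a and 7 in series b, where 28.6% and 12.4% of all genes did. In ADQ 18 and 5 passed, where 27.4% and 6.91% of all genes did. Eif3k in AV had -0.85 in series a and 0.09 in series b, and the difference between the series had an unadjusted interaction p of 0.00462 (limma). Eif3i had -0.79 and -0.11 in AV, -1.004 and -0.34 with ABT-263, and -0.81 and -0.45 with dasatinib and quercetin.

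An interaction of group and series passed unadjusted for 8 members in AV, 8 in AA and 0 in ADQ, against 21.8%, 17.3% and 8.89% of all genes. The YNG rats of series b were 4, and 2 of them (V10 and V11) had ribosomal protein values under the gap, while both AV rats of series b above it (4567 and 4572) had high eIF3 values. Leaving out AV rat 4567 raised the members called in AV to 25, and leaving out YNG rat V1 lowered them to 9. Leaving out any 1 rat gave 5 (without AV rat 4009) to 10 eIF3 genes in AV, 9 or 10 in AA and 7 to 10 in ADQ.

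**Figure D5:**
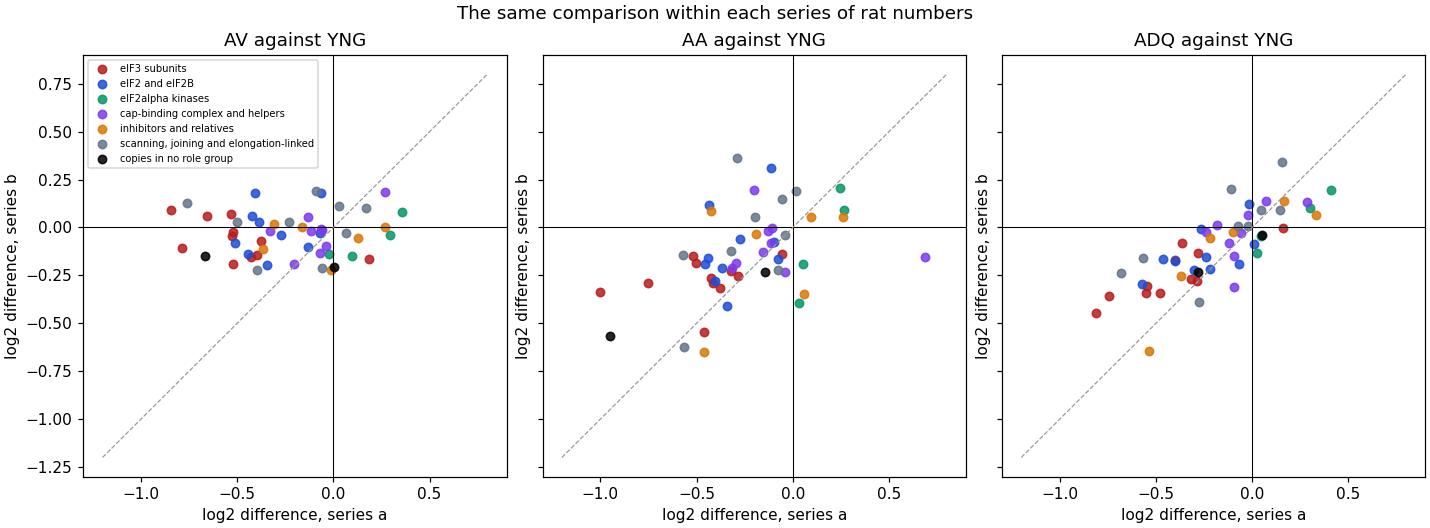
Log2 difference of each member from the young rats within series a (horizontal axis) and within series b (vertical axis), colored by role, for AV, AA and ADQ; the dashed line marks equal values. In AV the eIF3 genes (red) spread along the horizontal axis near 0 in series b, as Eif3k at -0.85 and 0.09 does, while in ADQ more of them lie below 0 in both.

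Of the 51 members, 26 have in RefSeq a copy named after them, as many as 11 for Eif5, 10 for Eif4e, 4 for Eif3i and 3 for Eif3k. How the authors shared reads among copies is not stated, so values of these members may hold reads of a copy.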

How the data were processed

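RNA from the dentate gyrus of 44 rats was sequenced. Per the submitters' processing notes and the study's methods, the authors trimmed reads, aligned them to rn6 with STAR (2.5.3a) in Partek, scaled gene counts by the median ratio and called genes with DESeq2. The deposited values are therefore a signal, estimated reads divided by a size factor per library, and not whole reads. Summed per rat they were 14297964 to 20579982. The depth before scaling is unknown, so no counting interval is given.

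Rows of 1 gene identifier were added up (24694 rows, 18347 genes), which joined several rows for 12 members. Genes with a mean of at least 5 (15598) were fitted with limma 3.58.1 in R 4.3.3 (trend, all 4 groups) on log2(value + 1), two-sided. As the study called genes at an unadjusted p under 0.05, so did the counts here, with Benjamini-Hochberg adjusted p over all genes beside them. The fit was tested on simulated data. Group came from the attribute table, which the authors deposited as text. Its age entries served only to check the groups, and its treatment entries were not used. Members and gene lists were chosen with earlier results of these data known. Every member is named, and levels are not compared between genes, for which no lengths were used. Promoters were RefSeq's (GRCr8, 47 of 51 members matched). Alternatives were another pseudocount, other minimum means, upper quartile scaling, the highest row per gene, only the groups compared, series as a covariate or alone, each rat left out, and 2 added later: the ribosomal protein level as a covariate, and without 10 rats of high level.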

Additional observations from a re-analysis of the deposited data

Results flagged for a closer look

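Within YNG, the group of a size that allows Dixon's test for a sample that stands apart, 2 of the 51 members had such a rat, close to the number chance gives at 1 in 20 groups. Eif1ax was 806 in rat V6, and the next rat was at 912.3, a gap of 0.47 of the whole range. Eif3el1 was 176.4 in rat V12, above the next rat at 122.1 (0.535 of the range).

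Eif1b, a paralog of the start codon factor Eif1, differed between the series in AA against YNG: the log2 difference was lower by -0.65 in series a than in series b, with a limma interaction adjusted p of 0.0433. It was -0.29 in series a and 0.36 in series b, and over both 0.03.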

How the results depend on the processing

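Of 63 member differences past an unadjusted p under 0.05, 63 kept direction and call with log2(value + 5), a minimum mean of 20 or no minimum. Upper quartile scaling and the highest row per gene each kept 59, series as a covariate 61, only the 2 groups compared 51, series a 49 and series b 10. The added settings kept 11 (ribosomal protein level as a covariate) and 5 (without the 10 rats). No paired analysis was possible because the labels give the groups no shared replicate numbers.

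Members called in AV against YNG were 14, and 6 with only those groups, 25 in series a, 1 in series b, 1 with the covariate and 2 without the 10 rats. In AA against YNG 22 became 7 in series b, 2 with the covariate and 1 without the 10 rats, and in ADQ against YNG 22 became 5, 4 and 0. The shares of all genes in the series and added settings against YNG are given above. In AA against AV 1 became 0 with only those groups, 0 in series a (3.85% of all genes) and 4 in series b (4.21%). Without the 10 rats it became 0 (3.96%). In ADQ against AV 1 became 2 with series as a covariate and 4 in series b (9.74% of all genes). It became 3 with the ribosomal protein covariate (9.54%) and 9, all higher, without the 10 rats (9.22%). In AA against ADQ 3 became 6 without the 10 rats (7.55% of all genes). The cause was not tested. Leaving out 1 rat gave 9 to 25 (AV), 20 to 28 (AA) and 19 to 25 (ADQ) against YNG, 0 to 3 and 1 to 5 for AA and ADQ against AV, and 0 to 6 between the drug groups. The shares of all genes in those fits are not given.

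Differences that changed sign in series b were, in AV, Eif3d (0.0717), Eif3k (0.0929), Eif3g (0.0585) and Eif6 (0.126). With the covariate they were Eif3f (0.0129) and Eif3g (0.00965) in AV, Eif3l (0.0099), Eif3f (0.0623), Eif2s2 (0.0417), Eif3g (0.0816) and Eif6 (0.0814) in AA, and Eif3d (0.0167), Eif3m (7.50e-05), Eif3f (0.0179), Eif2b3 (0.0491), Eif3c (0.0376) and Eif3g (0.0186) in ADQ. Without the 10 rats they were Eif2ak3 (-0.0565), Eif3l (0.106), Eif3f (0.0763), Eif2s2 (0.0152), Eif3k (0.0311), Eif3g (0.0818) and Eif6 (0.101) in AA, and Eif2ak3 (-0.0616), Eif3l (0.144), Eif3f (0.0611), Eif5a (0.0146), Eif3c (0.023), Eif3k (0.0354), Eif3g (0.0734) and Eif6 (0.0462) in ADQ.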
